A study of Mus musculus with 25 samples.

Results

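The 8 transcription factor and receptor genes Tcf7, Lef1, Bach2, Foxo1, Foxp1, Id3, Bcl6 and Slamf6, which are associated with naive and stem-like CD8+ T cells, were followed at the level of chromatin. A peak of open chromatin was assigned to one of these 8 genes when its midpoint had that gene as the nearest protein-coding start, or when it lay in the body of the gene. This rule, which uses position alone, took 68 of the 13527 peaks measured. Lef1 and Foxp1 had 15 peaks each, Bach2 had 16, Foxo1 had 9, Tcf7 had 6, Bcl6 had 4, Slamf6 had 2 and Id3 had 1. Of the 68 peaks, 63 were taken by nearest start and 5 by the gene body alone. Most lay away from promoters: 38 were intronic, 24 intergenic and 6 within 1000 bp of the start of a coding transcript. The peaks taken by the gene body alone include the intronic peaks Lef1 +89.8 kb, nearest to the start of Hadh, and Bach2 +321.9 kb, nearest to Gja10, and the body of Foxp1 overlaps that of Gm20696. The neighbouring gene does not show which gene a peak acts on.

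The assay was ATAC-seq, in which a transposase cuts accessible DNA and marks the cut for sequencing. It was run on fetus- and graft-specific CD8+ T cells (T_FGS) that were sorted by binding of an OVA:Kb tetramer from the spleen and lymph nodes of adult female C57BL/6 mice. The fathers and the skin donors carried OVA on every cell, so the same T cells see a graft and a fetus. Naive mice received nothing (3 libraries), and Sensitized mice had rejected an allogeneic skin graft (4 libraries). Naive+Pregnant (N+P) mice had a semi-allogeneic pregnancy without a graft, and Sensitized+Pregnant (S+P) mice had the graft before the pregnancy, with cells taken after delivery. Cells of the pregnant mice were sorted by the inhibitory receptor PD1 and the ectoenzyme CD73: PD1- cells are called C1 in N+P mice (3 libraries) and C4 in S+P mice (4 libraries), PD1+CD73+ cells are C5 (3 libraries in N+P, 4 in S+P), and PD1+CD73- cells are C7 (4 libraries, S+P only). The labels give no PD1 or CD73 gate for Naive and Sensitized cells, so pregnancy and the gate cannot be told apart in comparisons with them. By the paper, Sensitized cells were taken from the time after grafting at which S+P mice were mated, and S+P cells after delivery. Time since the graft can thus differ between S+P and Sensitized cells too, and cannot be told apart from pregnancy. The labels do not say whether the libraries of a group came from separate animals in every case, and p-values measure the spread between these libraries.

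TCF-1, encoded by Tcf7, and its relative LEF-1 bind DNA through an HMG box and act with the TLE corepressors and with beta-catenin. In CD8+ T cells they keep naive and memory cells, and the precursor cells of chronic infection, able to self-renew, and their loss accompanies effector and terminally exhausted states. BACH2 competes with AP-1 factors and restrains effector genes, FOXO1 drives homing and survival genes and Tcf7 itself, FOXP1 enforces quiescence, ID3 restrains E proteins, BCL6 opposes the effector factor Blimp-1, and SLAMF6 is a surface receptor used to mark stem-like cells.

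The DNA at the centre of 10 peaks that the results turn on is shown first: each was called in at least 1 comparison, and they were picked, after their values were seen, to show closing and opening peaks of several genes, with and without the words searched. They are no sample of the closing peaks: 5 of the 7 closing windows printed hold a TCF/LEF word, a share set by this choice. The 300 bases around each peak's midpoint are printed from 5′ to 3′ on the plus strand of GRCm39, and capitals mark the words searched: CTTTGAA and CTTTGAT (TCF/LEF), TGANTCA (AP-1), TGTGGTT (RUNX), GTAAACA (FOXO), TCACACC (T-box) and CAGCTG (E box), each on both strands, where the AP-1 and T-box words can share letters. Peaks are named by the distance of their midpoint from the gene's start, with a minus sign for upstream. The first 7 windows come from peaks that closed, at chr11:52204896-52205195 (Tcf7 -30.4 kb, intergenic), chr3:130984399-130984698 (Lef1 +80.6 kb, intron), chr3:130993523-130993822 (Lef1 +89.8 kb, intron), chr4:32343800-32344099 (Bach2 +105.2 kb, intron), chr6:99327495-99327794 (Foxp1 +172.0 kb, intron), chr3:130961390-130961689 (Lef1 +57.6 kb, intron) and chr4:32290972-32291271 (Bach2 +52.4 kb, intron), and the latter pair, which closed strongly, holds none of the words. The last 3 come from peaks that opened, at chr4:32179704-32180003 (Bach2 -58.9 kb, intergenic), chr4:32126698-32126997 (Bach2 -111.9 kb, intergenic) and chr1:171793666-171793965 (Slamf6 +48.8 kb, intergenic).
Tcf7 -30.4 kb: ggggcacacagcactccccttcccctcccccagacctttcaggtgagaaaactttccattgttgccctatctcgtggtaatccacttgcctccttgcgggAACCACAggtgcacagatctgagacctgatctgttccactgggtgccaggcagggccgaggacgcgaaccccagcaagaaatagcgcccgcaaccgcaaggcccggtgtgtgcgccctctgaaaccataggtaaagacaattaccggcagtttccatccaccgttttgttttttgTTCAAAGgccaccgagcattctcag
Lef1 +80.6 kb: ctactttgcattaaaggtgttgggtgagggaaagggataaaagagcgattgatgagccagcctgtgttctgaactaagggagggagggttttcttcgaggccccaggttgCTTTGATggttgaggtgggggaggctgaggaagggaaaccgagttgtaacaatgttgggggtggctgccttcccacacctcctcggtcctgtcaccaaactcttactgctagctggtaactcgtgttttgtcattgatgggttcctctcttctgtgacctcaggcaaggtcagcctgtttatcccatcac
Lef1 +89.8 kb: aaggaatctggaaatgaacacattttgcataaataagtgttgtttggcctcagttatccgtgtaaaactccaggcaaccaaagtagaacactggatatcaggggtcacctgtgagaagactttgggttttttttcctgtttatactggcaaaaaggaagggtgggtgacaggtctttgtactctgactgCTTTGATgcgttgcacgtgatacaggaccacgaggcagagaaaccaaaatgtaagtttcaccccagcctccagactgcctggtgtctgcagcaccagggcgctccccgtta
Bach2 +105.2 kb: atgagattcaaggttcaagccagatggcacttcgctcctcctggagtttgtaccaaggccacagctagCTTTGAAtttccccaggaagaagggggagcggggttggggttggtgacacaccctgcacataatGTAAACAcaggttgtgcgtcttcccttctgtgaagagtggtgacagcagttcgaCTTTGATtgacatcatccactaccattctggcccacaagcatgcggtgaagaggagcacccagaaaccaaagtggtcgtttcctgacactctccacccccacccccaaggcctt
Foxp1 +172.0 kb: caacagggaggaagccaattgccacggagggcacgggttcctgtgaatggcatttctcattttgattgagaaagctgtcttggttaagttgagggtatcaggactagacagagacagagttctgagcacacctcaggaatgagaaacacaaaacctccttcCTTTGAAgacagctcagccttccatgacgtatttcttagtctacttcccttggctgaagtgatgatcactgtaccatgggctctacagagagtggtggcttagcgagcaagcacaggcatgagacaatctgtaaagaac
Lef1 +57.6 kb: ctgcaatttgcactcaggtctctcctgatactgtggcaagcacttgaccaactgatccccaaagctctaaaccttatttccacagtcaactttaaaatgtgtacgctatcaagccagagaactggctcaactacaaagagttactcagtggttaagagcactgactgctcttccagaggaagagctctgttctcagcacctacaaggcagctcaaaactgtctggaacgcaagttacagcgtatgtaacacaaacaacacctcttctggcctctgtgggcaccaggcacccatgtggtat
Bach2 +52.4 kb: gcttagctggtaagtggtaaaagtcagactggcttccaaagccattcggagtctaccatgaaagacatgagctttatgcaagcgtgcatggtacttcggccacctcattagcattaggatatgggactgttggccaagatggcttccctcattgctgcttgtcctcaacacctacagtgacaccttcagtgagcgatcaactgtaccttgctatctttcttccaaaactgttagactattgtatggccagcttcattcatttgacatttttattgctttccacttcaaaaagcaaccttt
Bach2 -58.9 kb: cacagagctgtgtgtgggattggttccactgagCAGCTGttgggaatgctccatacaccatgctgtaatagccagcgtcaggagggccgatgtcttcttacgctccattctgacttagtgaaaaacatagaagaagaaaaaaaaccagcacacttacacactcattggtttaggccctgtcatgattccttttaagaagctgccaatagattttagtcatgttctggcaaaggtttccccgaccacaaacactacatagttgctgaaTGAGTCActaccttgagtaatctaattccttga
Bach2 -111.9 kb: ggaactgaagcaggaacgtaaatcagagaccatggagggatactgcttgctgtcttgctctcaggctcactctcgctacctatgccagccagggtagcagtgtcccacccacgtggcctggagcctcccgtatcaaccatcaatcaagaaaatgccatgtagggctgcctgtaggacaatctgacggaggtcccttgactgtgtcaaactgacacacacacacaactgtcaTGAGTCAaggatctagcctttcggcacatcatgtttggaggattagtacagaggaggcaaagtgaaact
Slamf6 +48.8 kb: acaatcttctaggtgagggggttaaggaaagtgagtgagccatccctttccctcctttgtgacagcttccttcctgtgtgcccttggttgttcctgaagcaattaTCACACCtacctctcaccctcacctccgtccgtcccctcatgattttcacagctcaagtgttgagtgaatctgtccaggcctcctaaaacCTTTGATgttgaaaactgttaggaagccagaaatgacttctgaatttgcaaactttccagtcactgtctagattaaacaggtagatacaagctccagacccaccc

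A TCF/LEF word of either spelling was in the central 300 bases of 14 of the 68 peaks (20.6%), against 15.3% of 5780 peaks outside promoters and 9.04% of all 13403 peaks of at least 300 bp. Among the 22 peaks that closed in S+P C7 relative to Sensitized cells, described below, 10 held such a word (45.5%). The AP-1 word was in 0 of those 22 windows and in 2 of the 7 windows that opened in S+P C5 relative to N+P C5, both beside Bach2 and both printed above, against 15.9% of peaks outside promoters. The RUNX word was in 2 of the 22 and the FOXO word in 3, against 20.2% and 5.19% outside promoters. The E box word was in 1 and the T-box word in 2 of the 22 (18.8% and 7.7% outside promoters), and GGAAAN, an NFAT core too common to mark in capitals, was in 18 of the 22 against 68.5%. These are matches of letters only: a match is not a bound site, a window without one leaves other spellings unsearched, and the 22 peaks were chosen by their change.

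Library totals ran from 2430890 to 25419715 counts in peaks, with S+P C4 replicate 1 the shallowest. The Sensitized libraries did not form 1 cluster: over all peaks, Sensitized replicates 3 and 4 correlated best with N+P C5, and replicate 1 with S+P C4. S+P C4 replicate 1 was also nearest to N+P C5, and Naive replicate 3 to N+P C1. In all, 10 libraries correlated best with another group. The other 5 did so by narrow margins. A set of 3 were N+P libraries that lay closer to the opposite subset of those mice. Replicate 3 of S+P C4 was nearest to S+P C7 (r = 0.938, against 0.937 for the C4 group), and replicate 1 of S+P C7 was nearest to S+P C5 (0.959 against 0.954). Counts below are also given without a library where that moves them by more than 1.5 times. As a check of the labelled cell type, 4 of 7 CD8 T cell markers (Cd8a, Cd3e, Cd3d and Cd3g) had a peak at their start, with a summed normalized count between 945 and 1505 in every library. None of the 3 CD4 T cell, 5 B cell, 2 NK cell or 3 erythroid markers had one. Of 5 myeloid markers, Cd68 alone had one. Its normalized count was 108 to 131 in Naive, 122.5 to 152.5 in N+P C1 and 126.8 to 157.5 in N+P C5 libraries. It was 163 to 194 in Sensitized, 176.5 to 248.5 in S+P C4, 242 to 362 in S+P C5 and 252 to 444 in S+P C7 libraries. The part of this difference in the results below was not tested. In bulk libraries, fewer cells with an open site and less opening per cell cannot be told apart.

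A peak was called when DESeq2 gave an adjusted p under 0.1 and a log2 fold change beyond 0.9 in either direction, and is then said to have opened or closed. Over 12 comparisons, 29 of the 68 peaks were called at least once: 22 closed only, 6 opened only, and Bach2 +185.9 kb did both in different comparisons. Of all peaks 22% were called at least once, 9.94% only as closing and 11% only as opening, and outside promoters these shares were 44.4%, 19.7% and 22.3%. The other 39 were never called. Counting Bach2 +185.9 kb under both, the peaks that closed lay at Bach2 (9), Lef1 (6), Foxp1 (5), Tcf7, Foxo1 and Bcl6 (1 each), and the peaks that opened lay at Bach2 (3), Foxp1 (3) and Slamf6 (1). Group means were successively lower from Naive to Sensitized to S+P C5 to S+P C7 at 32 of the 68 peaks (47.1%), against 26.3% of peaks outside promoters and 19.9% of all peaks. At Bach2 this held for 11 of 16 peaks, at Lef1 for 9 of 15 and at Foxo1 for 1 of 9. Summed over its 16 peaks, Bach2 held 19574 ± 1473 normalized counts in Naive libraries (SD, n = 3), 15864 ± 620 in Sensitized libraries (n = 4), and its sum was 12962 ± 666 for S+P C5 against 11246 ± 355 for S+P C7 (n = 4 each). Lef1 did not follow this order, with a sum over 15 peaks of 5891 ± 444 for S+P C5 against 6442 ± 433 for S+P C7 and overlapping ranges (5476 to 6492 and 5919 to 6952). Tcf7 summed to 3578 ± 171 for S+P C5 against 2780 ± 148 for S+P C7, without overlap. The heat map shows these runs of adjacent peaks inside Lef1, Bach2 and Foxp1 beside peaks of the same genes that moved little.

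**Figure D1:**
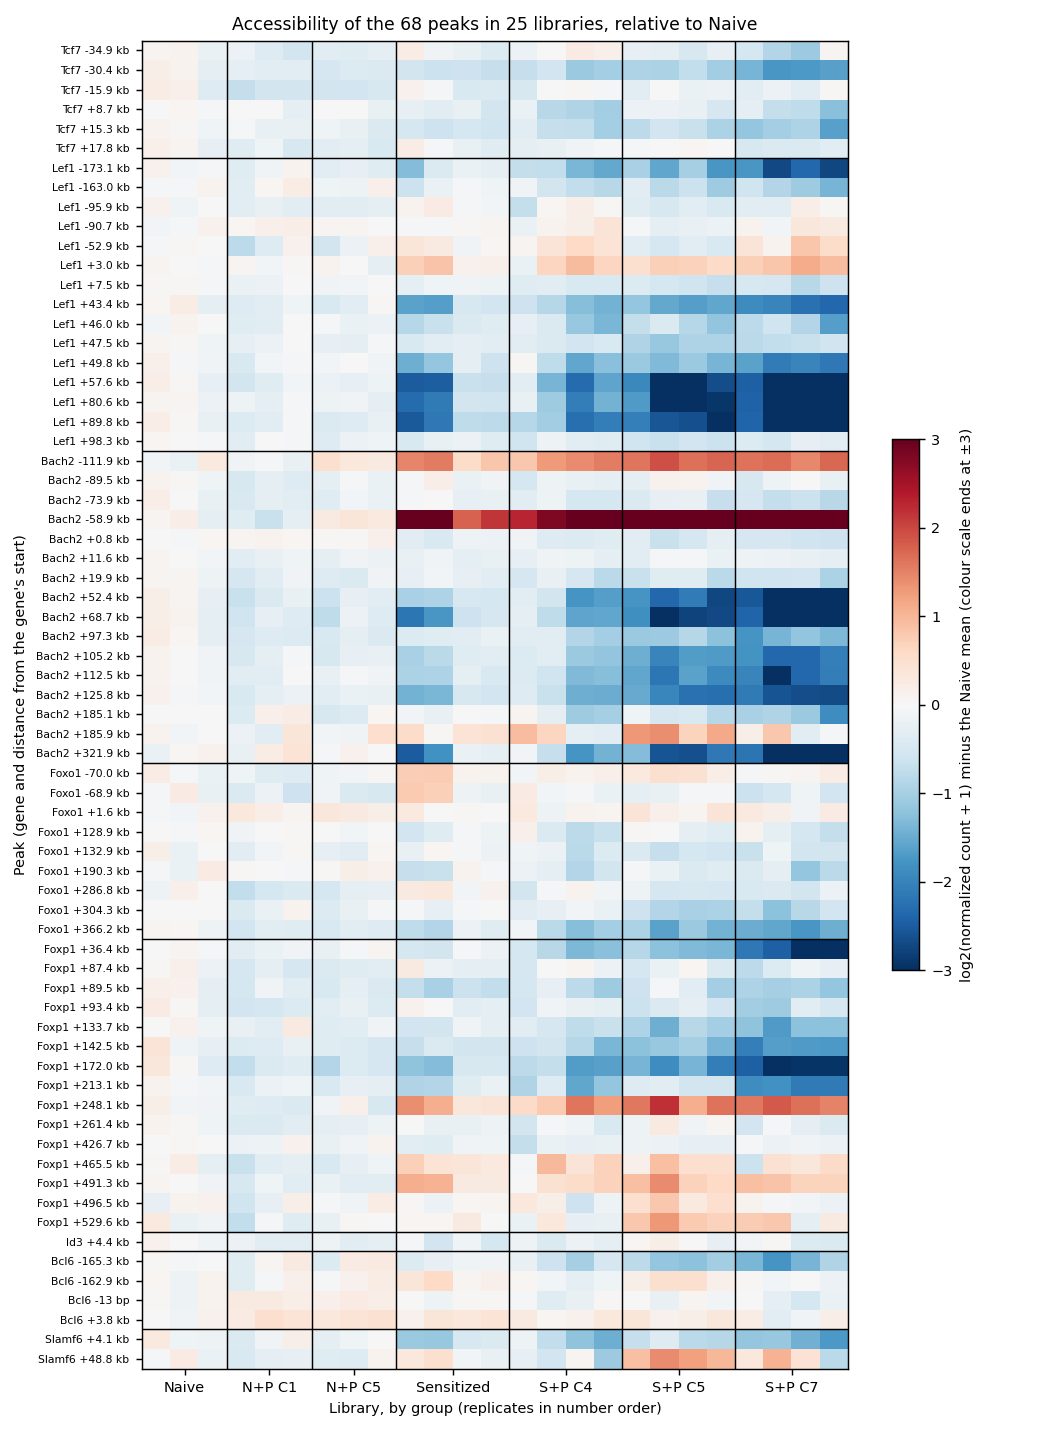
Accessibility of the 68 peaks (rows, by gene and distance from the gene's start) in the 25 libraries (columns, by group), as log2(normalized count + 1) minus the mean of the 3 Naive libraries, with blue for lower and red for higher. The N+P columns stay pale, while Lef1 +57.6, +80.6 and +89.8 kb, Bach2 +52.4, +68.7 and +321.9 kb and Foxp1 +36.4 kb turn dark blue in S+P C7. Bach2 -58.9 kb turns red in Sensitized libraries and in all S+P subsets. Sensitized replicates 3 and 4, the rightmost columns of their group, are paler than replicates 1 and 2.

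The peak nearest to each gene's start was called at 1 of the 8 genes, Foxp1, described with its other peaks. In S+P C7 relative to Sensitized cells, none of the start peaks of Tcf7 (+8.7 kb), Lef1 (+3.0 kb), Bach2 (+0.8 kb), Foxo1 (+1.6 kb), Id3 (+4.4 kb), Bcl6 (-13 bp) and Slamf6 (+4.1 kb) was called. The log2 fold change at the Foxo1 start peak was 0.08 (95% interval -0.13 to 0.29) and at the Id3 peak 0.09 (-0.19 to 0.37), so both intervals leave out a change as large as the threshold of 0.9. At the Bach2 promoter peak the normalized count was 1380 to 1462 in Naive, 1022 to 1269 in Sensitized and 917 to 1001 in S+P C7 libraries, without overlap between the latter groups. That difference was small, at -0.28 on the log2 scale (SE 0.085, DESeq2 adjusted p = 0.00336). At the same peak N+P C5 libraries held 1438 to 1570 counts and S+P C5 libraries 888 to 1177, also without overlap. The Lef1 promoter peak held 241 to 267 counts in Naive, 207 to 274 in N+P C5, 275 to 457 in Sensitized, 221 to 489 in S+P C4, 353 to 415 in S+P C5 and 417 to 547 in S+P C7 libraries. Sensitized, S+P C5 and S+P C7 libraries were all above Naive, while S+P C4 overlapped it. The log2 fold change was 0.66 (SE 0.199, adjusted p = 0.00292) for S+P C5 relative to N+P C5, short of a call.

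In mice without a graft no member was called: the C1 and the C5 subset of N+P mice, each compared with Naive cells and then with each other, gave calls at 0 of the 68 peaks in every case. DESeq2 withheld adjusted p-values from low-count peaks here, and called 0.0205% of the 4873 peaks it tested in the first comparison, 0.0262% of 3824 in the second and 0% of 13527 in the third. Outside promoters those shares were 0.0835%, 0.116% and 0%. Among the members 26, 18 and 68 were tested, and edgeR called 0 in each. At an unadjusted p under 0.05 the members counted 15, 14 and 1 of 68, where 19%, 17.5% and 2.28% of all peaks passed. For N+P C1 against Naive, 59 of 68 members were below 0, with a median log2 fold change of -0.26 against -0.02 over all peaks and -0.10 outside promoters. Of the 26 members tested there, 7 were lower and 1 higher at an adjusted p under 0.1, where 1.99% of all tested peaks were lower and 9.91% higher. Only 1197 of the 4873 tested peaks lay outside promoters. No share outside them is given at this level, here or for N+P C5. For N+P C5 against Naive, 55 of 68 were below 0, with a median of -0.20 against 0.00 over all peaks and -0.03 outside promoters, and all 68 lay between -0.62 and 0.39. The Tcf7 peak 30.4 kb upstream was among the 3 members with an adjusted p under 0.1 in that comparison, at -0.45 (SE 0.134, adjusted p = 0.0487), where 1.26% of all tested peaks were lower and 6.62% higher at that level. It was at 1145 to 1597 counts in Naive and 999 to 1066 in N+P C5 libraries.

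Sensitization by a graft, compared with Naive cells, called 7 of the 68 peaks. The 5 closings and 2 openings stood against 1.4% of all peaks closing and 7.22% opening (3.04% and 15.4% outside promoters). The closings were Lef1 +43.4, +57.6, +80.6 and +89.8 kb and Bach2 +68.7 kb, and the openings Bach2 -58.9 and -111.9 kb. Lef1 +89.8 kb held 705, 837 and 934 normalized counts in the Naive libraries and 142, 184, 484 and 473 in Sensitized replicates 1 to 4. The groups did not overlap, and replicates 3 and 4 stood between the other 2 and Naive. The log2 fold change was -1.36 (SE 0.390, DESeq2 adjusted p = 0.00518). The count of calls rested on the Sensitized libraries: it was 3 (1 closing, 2 opening) without replicate 1 or without replicate 2, 12 (9 and 3) without replicate 3, 11 (8 and 3) without replicate 4 and 4 (2 and 2) without Naive replicate 2. Closings thus outnumbered openings in some of these fits and not in others. Without Sensitized replicates 3 and 4 together, a choice made after seeing the data, it was 17 (13 closing, 4 opening), which included all 7.

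Bach2 -58.9 kb was the peak that opened most. It held 35 to 50 counts in Naive, 27 to 36 in N+P C1 and 52 to 56 in N+P C5 libraries. Sensitized replicates 1 to 4 held 538, 435, 148 and 195, and S+P C4 replicates 214, 308, 454 and 522. All S+P C5 libraries (505, 647, 523 and 516) and all S+P C7 libraries (603, 514, 577 and 633) held at least 505. Every library of a grafted mouse was above every library of a mouse without a graft. The log2 fold change was 2.92 (SE 0.345, adjusted p = 5.39e-15) for Sensitized against Naive and 3.35 (SE 0.344, adjusted p = 7.22e-20) for S+P C5 against N+P C5, the latter a 10.2-fold difference. Between S+P C5 and Sensitized cells it was 0.73 (SE 0.299, adjusted p = 0.0559), which was not called. Farther upstream, Bach2 -111.9 kb moved likewise, from 436 to 509 counts in N+P C5 libraries to 1109 to 1388 in S+P C5 (1.39, SE 0.195, adjusted p = 3.11e-11).

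**Figure D2:**
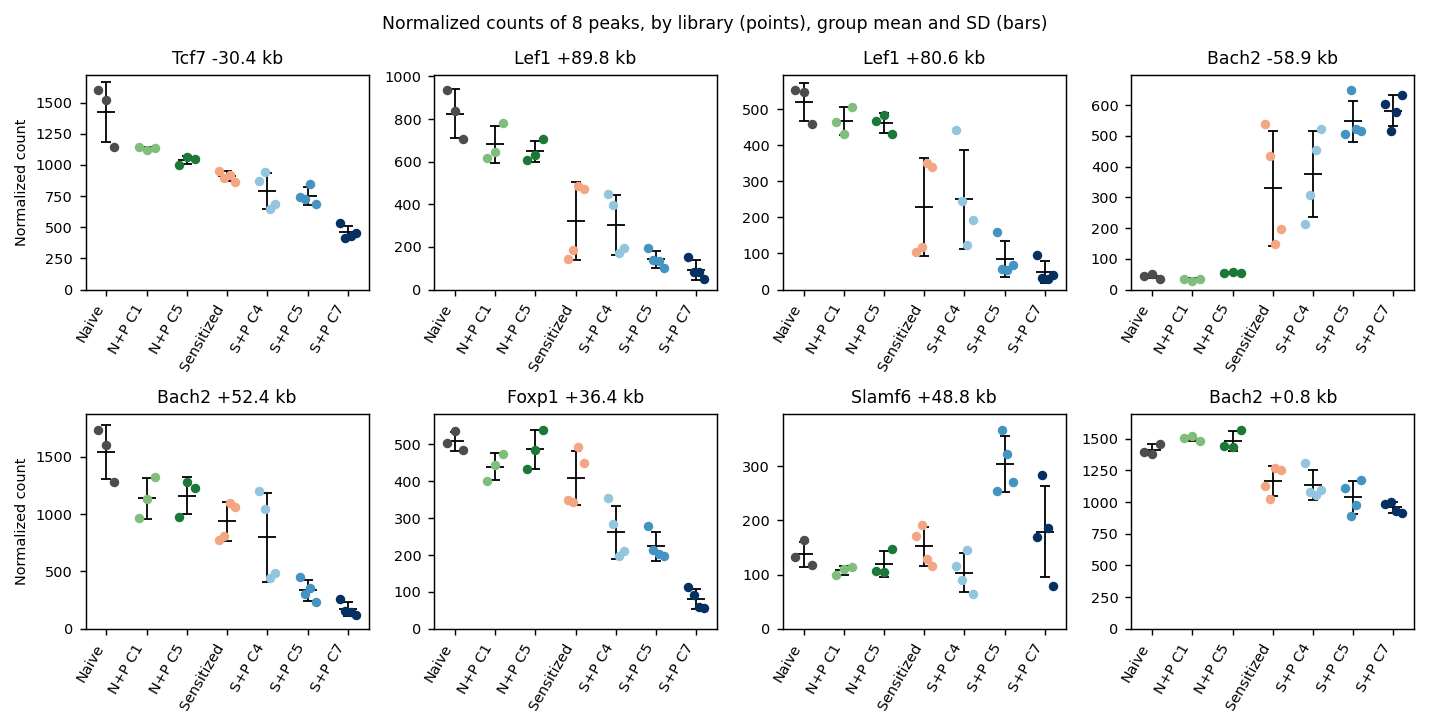
Normalized counts (vertical axes, linear from 0) of 8 peaks in each library (points) by group, with the group mean and SD as bars. Lef1 +80.6 and +89.8 kb and Bach2 +52.4 kb fall to their lowest in S+P C5 and C7, and Bach2 -58.9 kb is high only in grafted mice. Foxp1 +36.4 kb and Tcf7 -30.4 kb are lowest in S+P C7, and Slamf6 +48.8 kb has its highest mean in S+P C5. Bach2 +0.8 kb, the promoter peak, moves less, with every S+P C5 and C7 library below every library of ungrafted mice.

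The comparison of S+P C5 with N+P C5 asked how PD1+CD73+ cells after a pregnancy differ with and without a prior graft. It called 22 of the 68 peaks, 15 closing and 7 opening (22.1% and 10.3% of the members). Over all peaks 6.97% closed and 10.3% opened, and outside promoters 13.9% and 21.5%. The closings were 6 at Lef1, 6 at Bach2, 2 at Foxp1 and 1 at Bcl6, and the openings 3 at Bach2, 3 at Foxp1 and 1 at Slamf6. All 22 were also called by edgeR. With loess normalization in place of size factors the split was 16 closing and 4 opening, and Bach2 +185.9 kb, Foxp1 +529.6 kb and Slamf6 +48.8 kb were no longer called as opening. No Tcf7, Foxo1 or Id3 peak was called. The groups did not overlap at any of the 22. Over all peaks, called or not, every S+P C5 library was lower at 32% and higher at 30.9%, and over the members at 33 and at 14 of 68.

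Inside Lef1, the 3 peaks at +57.6, +80.6 and +89.8 kb lost most. Lef1 +80.6 kb held 459 to 552 counts in Naive, 431 to 507 in N+P C1 and 432 to 485 in N+P C5 libraries. In Sensitized replicates 1 to 4 it held 104, 118, 351 and 341, and in S+P C4 replicates 442, 245, 123 and 193. S+P C5 libraries were at 159, 58, 53 and 68, and S+P C7 libraries at 95, 31, 28 and 41. All Sensitized libraries were below every N+P library, and S+P C4 replicate 1, the shallowest library, was the only S+P C4 library at the N+P level. S+P C5 and N+P C5 did not overlap, with a log2 fold change of -2.44 (SE 0.459, adjusted p = 1.09e-06), a 5.41-fold loss. Lef1 +57.6 kb, named after its values were seen, fell 6.02-fold in the same comparison and Lef1 +89.8 kb 4.54-fold. These 3 peaks were in the deposited peak lists of the Naive group and both N+P groups and in no list of a grafted group.

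Other Lef1 peaks a short distance away were not called. The intronic peaks at +46.0, +47.5 and +98.3 kb, between and beside the peaks that closed, had log2 fold changes of -0.37, -0.35 and -0.08 in S+P C7 against Sensitized cells. Lef1 +47.5 kb, named after its values were seen, changed by less than the threshold of 0.9, with its lowest libraries in S+P C5 (546 to 645 counts, against 692 to 802 in S+P C7 and 879 to 990 in Sensitized) and a log2 fold change of -0.62 against Sensitized (SE 0.0781, adjusted p = 1.07e-12). The peaks at +43.4 and +49.8 kb closed, at -1.13 each. Lef1 -173.1 kb (chr3:130730644-130730954), intergenic and 311 bp long, closed in S+P C7 against Sensitized (-1.83, SE 0.272, adjusted p = 8.42e-10), S+P C4 and S+P C5. It held 258 to 300 counts in Naive, 110 to 236 in Sensitized, 81 to 138 in S+P C5 and 41 to 81 in S+P C7 libraries.

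Inside Bach2, a long intronic stretch closed. Bach2 +52.4 kb (chr4:32289841-32292403) held 1285 to 1736 counts in Naive, 965 to 1321 in N+P C1 and 976 to 1283 in N+P C5 libraries. It held 777, 809, 1094 and 1065 in Sensitized replicates 1 to 4, and 1205, 1046, 447 and 487 in S+P C4. In S+P C5 it was at 451, 300, 356 and 231, and in S+P C7 at 261, 155, 149 and 120. No S+P C5 or C7 library reached the lowest Sensitized library. Against Sensitized cells the log2 fold change was -1.48 (SE 0.269, adjusted p = 2.20e-06) in S+P C5 and -2.45 (SE 0.274, adjusted p = 1.11e-16) in S+P C7, a 5.46-fold loss. Bach2 +105.2 kb fell from 1256 to 1966 counts in Sensitized to 478 to 708 in S+P C7 libraries (-1.53, SE 0.182, adjusted p = 7.39e-15). Bach2 +68.7, +97.3, +112.5, +125.8, +185.1 and +321.9 kb closed as well in S+P C7, between -2.16 and -1.09, although the call at +321.9 kb was lost without Sensitized replicates 3 and 4. The 2 intronic peaks nearest the start, +11.6 and +19.9 kb, were at 0.00 and -0.45 and were not called. The plot along the genes sets these closing stretches beside the upstream peaks that opened.

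**Figure D3:**
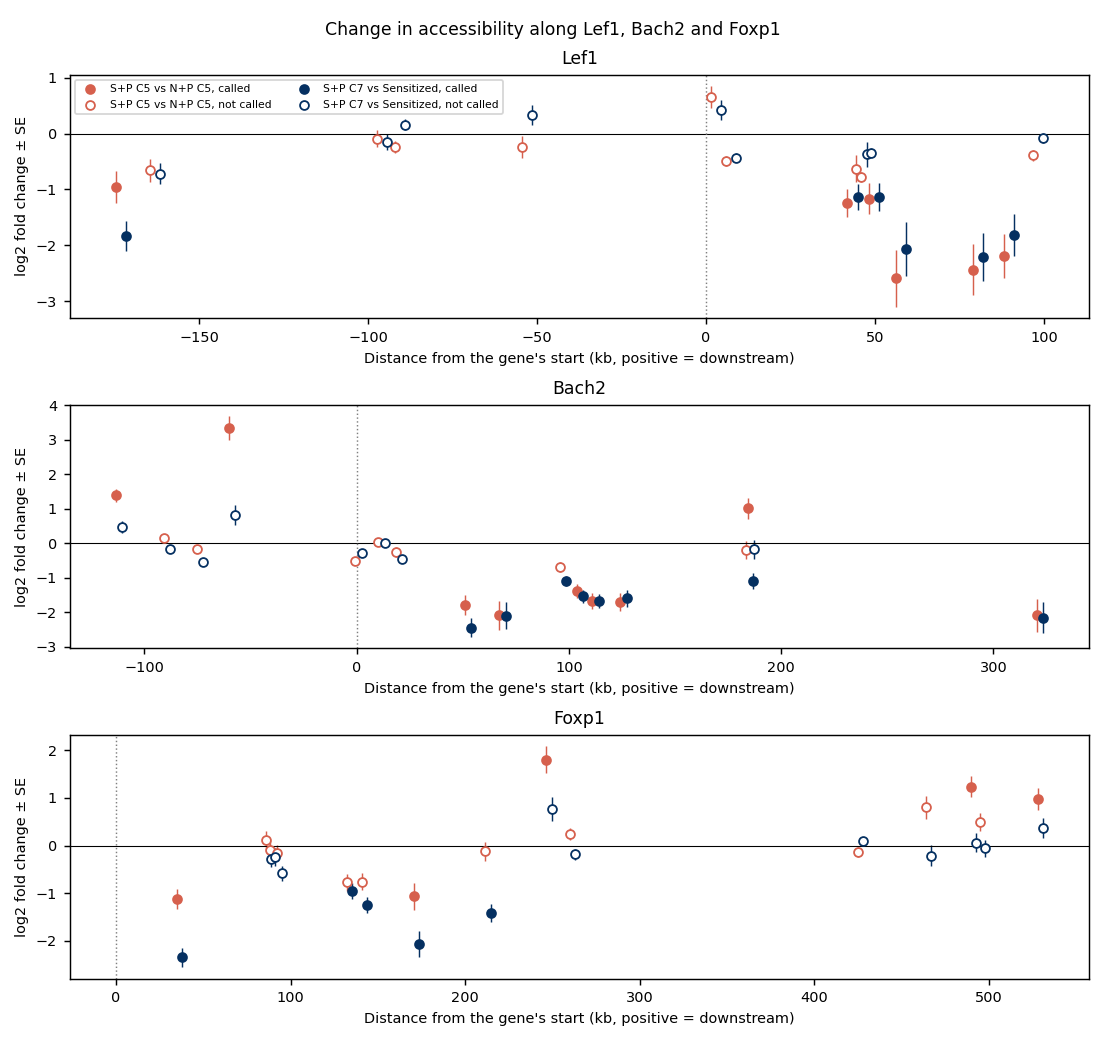
log2 fold change ± SE (vertical axis) of every Lef1, Bach2 and Foxp1 peak against its distance from the gene's start (horizontal axis, kb), for S+P C5 against N+P C5 (red) and S+P C7 against Sensitized (dark blue), with called peaks filled and the colours set 3 kb apart so that both are visible. The filled peaks from 43.4 to 89.8 kb into Lef1 and from 52.4 to 125.8 kb into Bach2 lie well below 0, the Lef1 peaks at +46.0 and +47.5 kb between them are nearer to it (-0.37 and -0.35 in dark blue), and the Bach2 peaks upstream of the gene at -111.9 and -58.9 kb lie above 0 in red.

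Foxp1 held peaks of both kinds. Foxp1 +36.4 kb (chr6:99462925-99463737, intron), the peak nearest to its start, held 485 to 537 counts in Naive, 344 to 492 in Sensitized, 198 to 354 in S+P C4, 196 to 280 in S+P C5 and 57 to 114 in S+P C7 libraries. S+P C7 was below every other library, with a log2 fold change against Sensitized of -2.35 (SE 0.209, adjusted p = 1.07e-25), the smallest adjusted p of any member. Foxp1 +172.0 kb (-2.07, SE 0.273) and +142.5 kb (-1.24, SE 0.168) closed in the same comparison. Foxp1 +213.1 kb (chr6:99286093-99287091, intron) separated the PD1+ subsets: it held 474 to 560 counts in S+P C5 and 159 to 197 in S+P C7, a 2.88-fold difference (adjusted p = 1.75e-11) with S+P C7 lower in 4 of 4 replicate numbers. Against Sensitized cells S+P C5 differed there by 0.11 (95% interval -0.26 to 0.47). A set of 3 Foxp1 peaks opened in S+P C5 against N+P C5: +248.1 kb by 1.81, +491.3 kb by 1.23 and +529.6 kb by 0.97 on the log2 scale.

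At Tcf7, 1 of 6 peaks was called, in 1 comparison. Tcf7 -30.4 kb held 1597, 1523 and 1145 counts in Naive, 864 to 953 in Sensitized, 645 to 946 in S+P C4, 685 to 849 in S+P C5 and 417 to 535 in S+P C7 libraries. S+P C7 was below all 21 other libraries. The log2 fold change against Sensitized was -0.98 (SE 0.119, adjusted p = 2.10e-14), close to the threshold of 0.9. The other 5 Tcf7 peaks had log2 fold changes of -0.61 to -0.02 in that comparison, and 5 of the 6 were lower at an adjusted p under 0.1 (27.6% of all peaks). For S+P C7 against S+P C5 this held for 4 of the 6 (6.1% of all peaks). These shares of all peaks include promoters, and no share outside promoters is given at this level. Tcf7 +8.7 kb, at the start of a shorter coding transcript, differed by -0.37 (95% interval -0.70 to -0.04, adjusted p = 0.0579). The 5 peaks whose level over the 25 libraries was most like that of Tcf7 -30.4 kb lay nearest to Akap13 (Pearson r = 0.963), Foxp1 (0.962, the member at +172.0 kb), Pik3r5 (0.962), Znrf3 (0.958) and Vdac1 (0.957, at chr11:52231808-52232595, farther upstream of Tcf7). These r are over libraries of 7 groups that share depth and sorting differences, and are given as a description.

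Foxo1, Bcl6 and Id3 had few calls. Of 9 Foxo1 peaks, 8 were never called, but in S+P C7 against Sensitized 6 of the 9 were lower at an adjusted p under 0.1, as were 4 of 4 Bcl6 peaks, against the same 27.6% of all peaks. For S+P C5 against Sensitized this held for 5 Foxo1 peaks and 1 Bcl6 peak (18% of all peaks), with a Foxo1 median of -0.45 on the log2 scale. These shares of all peaks include promoters too. Foxo1 +366.2 kb (chr3:52541835-52542155, intergenic) held 238 to 282 counts in Naive, 144 to 236 in Sensitized, 86 to 137 in S+P C5 and 78 to 95 in S+P C7 libraries, without overlap between Sensitized and either of the latter. At Bcl6, 3 of 4 peaks were never called, and the promoter peak held 386 to 458 counts in Naive, 385 to 437 in Sensitized and 297 to 424 in S+P C7 libraries. Bcl6 -165.3 kb (chr16:23972665-23973104, intergenic) held 352, 558 and 568 counts in N+P C5 and 271, 211, 200 and 227 in S+P C5 libraries, a log2 fold change of -1.11, and 136 to 249 in S+P C7. The Id3 peak lay between 220 and 373 counts in all 25 libraries and was not called in any of the 12 comparisons. At an adjusted p under 0.1 it was higher in S+P C5 against Sensitized, by 0.31 on the log2 scale. The difference of C5 steps described below was 0.56 there, also at that level.

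The 3 subsets of S+P mice were each compared with the same 4 Sensitized libraries. In S+P C7, 22 of 68 members closed (32.4%) and 0 opened. Over all peaks 8.03% closed and 3.84% opened, and outside promoters 16.4% and 8.2%. The median log2 fold change of the members was -0.37, against 0.00 over all peaks. The closings were 8 at Bach2, 6 at Lef1, 5 at Foxp1 and 1 each at Tcf7, Foxo1 (+366.2 kb, -1.06) and Bcl6 (-165.3 kb, -1.10). edgeR called the same 22. Without Sensitized replicate 1 there were 22 closings and 2 openings. Without Sensitized replicates 3 and 4 the count was 16, of which 15 were among the 22. The 7 no longer called were Foxo1 +366.2 kb (-0.75), Bach2 +321.9 kb, Foxp1 +133.7 kb and Lef1 +43.4, +49.8, +57.6 and +89.8 kb.

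S+P C5 against Sensitized called 10 members, 9 closing (13.2%) and Slamf6 +48.8 kb opening. Over all peaks 3.67% closed and 3.08% opened, and outside promoters 7.94% and 6.78%. The closings were 6 at Bach2 and 3 at Lef1. This count depended on the Sensitized libraries that stood apart: without Sensitized replicates 3 and 4 it was 2, and Bach2 +52.4 kb was the only one of the 10 that was kept. Without replicate 1 it was 15 (12 closing, 3 opening). With loess normalization 13 members closed and 0 opened. S+P C4 against Sensitized called 0 members, with 12 at an unadjusted p under 0.05 (18.7% of all peaks) and 0 by edgeR, where 0.858% of all peaks were called (0.562% opening and 0.296% closing, and 1.26% and 0.666% outside promoters). Without Sensitized replicates 3 and 4 it called 1, an opening.

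**Figure D4:**
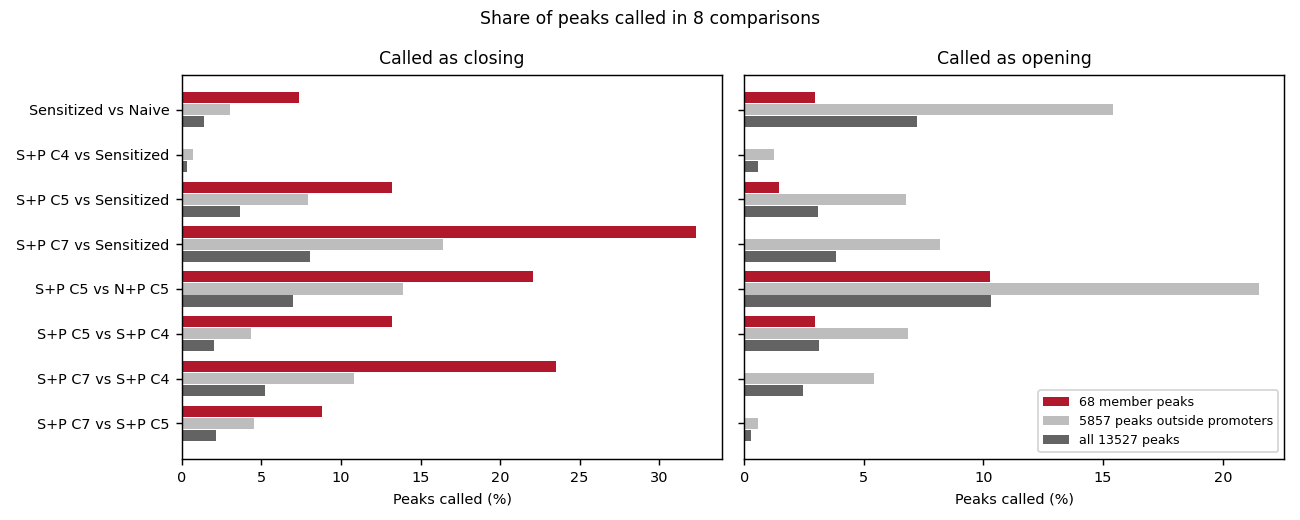
Share of peaks called (horizontal axes, %) as closing (left) and opening (right) in 8 comparisons, for the 68 member peaks (red), the 5857 peaks outside promoters (light grey) and all 13527 peaks (dark grey). The members closed most often in S+P C7 against Sensitized (32.4%), and no member opened in the comparisons of S+P C7 with Sensitized, S+P C4 or S+P C5.

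Within grafted and pregnant mice the PD1+ subsets were set against the PD1- cells. S+P C7 against S+P C4 closed 16 members and opened 0 (5.25% of all peaks closed and 2.48% opened, 10.8% and 5.41% outside promoters). S+P C5 against S+P C4 closed 9 and opened 2 (2% and 3.12% of all peaks, 4.37% and 6.85% outside promoters). The count of 11 fell to 6 without the shallow S+P C4 replicate 1, with 3 in each direction, and to 7 (6 closing, 1 opening) without S+P C5 replicate 2. Without both S+P C4 replicate 1 and Naive replicate 3, chosen after seeing the data, it was 5, of which 4 were among the 11, and 4 Bach2 peaks (+105.2, +112.5, +125.8 and +321.9 kb) and all 3 Lef1 peaks among the 9 closings were no longer called. Between the PD1+ subsets, S+P C7 closed 6 members relative to S+P C5 and opened 0 (2.11% and 0.266% of all peaks, 4.56% and 0.581% outside promoters): Lef1 -173.1 kb, Bach2 +52.4 and +185.9 kb, and Foxp1 +36.4, +172.0 and +213.1 kb. That count was 11 (10 closing, 1 opening) without S+P C7 replicate 1.

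Slamf6 +48.8 kb, which lies beyond the end of the gene, had its highest level in S+P C5. Naive libraries held 118 to 163 counts, N+P libraries 98 to 147, Sensitized libraries 117 to 191 and S+P C4 libraries 63 to 146. S+P C5 replicates 1 to 4 held 255, 367, 322 and 272, and S+P C7 replicates 169, 284, 186 and 78. S+P C5 was above every library outside S+P C7, where replicate 2 overlapped it. The log2 fold change against S+P C4 was 1.57 (SE 0.300, adjusted p = 1.16e-05), with S+P C5 higher in 4 of 4 replicate numbers, and the C7 subset set against C5 gave -0.77 (SE 0.292, adjusted p = 0.0947), which was not called, with S+P C7 lower in 4 of 4 replicate numbers (ratios from 0.288 to 0.774). With loess normalization the opening relative to S+P C4 was still called and that relative to Sensitized was not. The intronic peak Slamf6 +4.1 kb held 760 to 1037 counts in Naive, 385 to 630 in Sensitized and 257 to 383 in S+P C7 libraries, and the latter groups differed by -0.60 on the log2 scale (adjusted p = 0.0234), which was not called. The peaks most like Slamf6 +48.8 kb over the 25 libraries lay nearest to Ankrd12 (r = 0.891), Pip4k2a (0.888), Tnip3 (0.887), Il6st (0.883) and Rplp1 (0.883).

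The step to the C5 cells of pregnant mice from the cells of unmated mice, for which the labels give no gate, was compared between grafted and ungrafted mice, as the difference between S+P C5 against Sensitized and N+P C5 against Naive, in which pregnancy and the gate cannot be told apart. It called 4 of the 68 members (5.88%), 2 in each direction, a share near that of all peaks (2.93% of all peaks negative and 3.04% positive, and 5.4% and 5.84% outside promoters). Bach2 +52.4 kb (-1.07, SE 0.410, adjusted p = 0.0476) and Bach2 +112.5 kb (-1.05, SE 0.316, adjusted p = 0.0147) had the more negative step in grafted mice. Foxp1 +248.1 kb (0.93, SE 0.399, adjusted p = 0.0766) and Slamf6 +48.8 kb (1.21, SE 0.451, adjusted p = 0.0429) had the more positive one. With loess normalization 9 members were called, all negative, and neither Foxp1 +248.1 kb nor Slamf6 +48.8 kb was among them. None of the 4 was called without Sensitized replicates 3 and 4, and the count ran from 1, negative, without Sensitized replicate 4 to 12 (9 negative, 3 positive) without S+P C5 replicate 1. Without Sensitized replicate 1 it was 11, with 9 negative and 2 positive, so the split was uneven in those fits. Without Naive replicate 2 it was 2, with 1 in each direction.

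Other genes of the same programs, taken by the same position rule, were counted beside the members. Of 62 peaks at 12 homing and survival genes, 24 closed and 2 opened in S+P C7 against Sensitized, where 8.03% of all peaks closed and 3.84% opened. Most of the 24 closings lay at 3 genes. Satb1, a chromatin organizer, closed at 9 of 12 peaks, and Ccr7, the lymph node homing receptor, at 5 of 6. Il7r, the interleukin-7 receptor, closed at 3 of 5. The remaining closings lay at other genes of the list, and the 2 openings are not placed here. At 9 partners of TCF-1 and LEF-1 with peaks, 4 of 23 peaks closed, 1 opened and 18 were not called, with a median log2 fold change of 0.12. The closings were the 1 peak of Ctnnb1, which encodes beta-catenin, the 1 peak of the corepressor gene Tle1 and 2 of 4 peaks of Tle4, and the opening was at Runx1. At 12 effector or terminal-exhaustion genes 19 of 57 peaks opened and 4 closed. The openings included 3 of 4 peaks at Havcr2, which encodes TIM-3, and 3 of 4 at Tbx21, which encodes T-bet. The closings were 3 of 8 peaks at Tox, an exhaustion factor with 2 opening peaks as well, and 1 of 6 at Ifng, which encodes interferon gamma. No peak of Prdm1, Gzmb or Batf was called. These lists were chosen with earlier results of the same data known. In Sensitized against Naive cells the effector list opened at 27 of 57 peaks and closed at 0, where 7.22% of all peaks opened and 1.4% closed.

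The deposited peak lists, each made from all libraries of a group, overlapped 51 of the 68 members in Naive, 45 in N+P C1, 49 in N+P C5, 44 in Sensitized, 46 in S+P C5, 26 in S+P C7 and 12 in S+P C4. As shares of the members against all peaks these were 75% and 62.6% for Naive, 66.2% and 62.9% for N+P C1, 72.1% and 62.2% for N+P C5, and 64.7% and 71.1% for Sensitized. For the S+P subsets they were 17.6% and 27% (C4), 67.6% and 82.9% (C5), and 38.2% and 64% (C7). The members' share was above that of all peaks in the 3 groups without a graft, narrowly in N+P C1, and below it in the 4 with one. The shares of all peaks include promoters, whereas most members lie outside them. No share outside promoters was computed for the lists, so these differences are given as a description. The lists differ in length and in the depth of their libraries, and 8 members were in all 7 lists while 9 were in 1 only.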

How the data were processed

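Chromatin accessibility was measured in 25 ATAC-seq libraries of 7 groups, sequenced in the same run. From the submitters' processing notes and the study's methods, the authors trimmed reads with cutadapt 3.4, aligned them to GRCm39 with Bowtie2 2.2.9, removed duplicates with Picard 2.21.8, called peaks per library with Genrich 0.6.1, kept peaks reproducible within a group with ChIP-R, merged the lists of the groups with bedtools 2.27.1 and counted reads per peak with deepTools. The deposited matrix holds raw read counts per merged peak, and 0 of its columns were left unused. The deposited list of each group holds, as pooled values of the authors, a peak score, a signal value, a p-value and a q-value, of which only positions and the q-value were used here. Totals in peaks ran from 2430890 to 25419715 (median 8197552), and low totals widen the error of a library's values.

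Each peak was assigned to protein-coding gene starts of GENCODE vM39 on GRCm39. All counts were fitted in 1 DESeq2 1.42.0 model of group (Wald test, Benjamini-Hochberg adjustment over all peaks of a comparison, R 4.3.3). The code was also run on simulated counts with a shared spread per peak and changes in S+P C5 alone. That run cannot show how the fit handles Sensitized libraries that stand apart. Normalized counts are counts divided by the size factors of DESeq2. Normalized counts are not scaled by peak length, so levels are compared between libraries and not between peaks. The text names, for each gene, the peak nearest its start and up to 3 called peaks with the smallest adjusted p, which is thus the best of several peaks and comparisons. For Tcf7 and Slamf6 it also names the 5 peaks of other genes with the highest Pearson r. Any further peak named, and the choice of printed windows, followed from the values seen. The members and gene lists were chosen with earlier results of these data known.

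Alternatives were edgeR 4.0.16 (quasi-likelihood, TMM), total-count and loess normalization (limma 3.58.1), a mean of at least 100 counts, no independent filter, an adjusted p under 0.05, a fit of the compared groups alone, a 100 kb limit on assignment, a replicate block and leaving out each library. Column names of the matrix give the N+P and S+P subsets shared numbers and do not say what a number stands for. Deviations from the group means of same-numbered libraries correlated at 0.0639 to 0.771 over 15 pairs, and all but 1 pair, S+P C4 and C7 number 2, were over 0.1. No replicates were alike within sampling noise (chi-square per degree of freedom of at least 2.81).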

Additional observations from a re-analysis of the deposited data

Results flagged for a closer look

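In 4 of 84 tests of a group's extreme library by Dixon's ratio, 1 library stood apart from the others of its group, and chance gives about 1 in 20. S+P C5 replicate 4 was lowest at Tcf7 +8.7 kb (613 normalized counts), and S+P C5 replicate 1 was highest at Lef1 +80.6 kb (159 counts, where the other 3 held 53 to 68). S+P C4 replicate 1, the library with the lowest total, was highest at the Bach2 promoter peak, +0.8 kb (1307 counts), and S+P C5 replicate 2 was highest at Bach2 -58.9 kb (647 counts).

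The step from unmated mice to the C5 cells of pregnant mice differed between grafted and ungrafted mice at 4 of 68 member peaks (5.88%, where 2.93% of all peaks were called as negative and 3.04% as positive), by the DESeq2 test of the difference itself. Pregnancy and the PD1 and CD73 gate cannot be told apart in it. The difference of log2 fold changes was -1.05 at Bach2 +112.5 kb, -1.07 at Bach2 +52.4 kb, 0.93 at Foxp1 +248.1 kb and 1.21 at Slamf6 +48.8 kb. Neither positive call held with loess normalization, where 9 members were called as negative and 0 as positive. None of the 4 was called without Sensitized replicates 3 and 4.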

How the results depend on the processing

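For the 8 comparisons that called members, 126 of 143 recomputed counts stayed within 1.5 times the reported value. The other 4 comparisons called 0 members, and 62 of their 63 recomputed counts were 0, which says little about stability. For Sensitized against Naive (7), leaving out 1 library gave 3 to 12. For S+P C5 against S+P C4 (11) it gave 6 to 11, for S+P C7 against S+P C5 (6) 4 to 11, and for the difference of C5 effects (4) 1 to 12. With loess normalization in place of size factors the difference of C5 effects gave 9, all negative. Leaving out 1 library gave 7 to 15 for S+P C5 against Sensitized (10), 21 to 24 for S+P C7 against Sensitized (22), 20 to 24 for S+P C5 against N+P C5 (22) and 14 to 18 for S+P C7 against S+P C4 (16). After seeing the data, Sensitized replicates 3 and 4 were left out together, which gave 17 for Sensitized against Naive, 1 for S+P C4 against Sensitized, 2 for S+P C5 against Sensitized and 0 for the difference of C5 effects. Leaving out Naive replicate 3 and S+P C4 replicate 1, also chosen after seeing the data, gave 5 for S+P C5 against S+P C4. The cause of these moves was not tested. With the replicate number as a block, the counts were 0 for N+P C5 against N+P C1, 12 for S+P C5 against S+P C4 (11 of them as without the block), 16 for S+P C7 against S+P C4 (the same 16) and 7 for S+P C7 against S+P C5 (6 as without the block). In 12 of 15 pairs a library correlated best with its own number, and the labels do not name the animals. The 13 peaks named by their smallest adjusted p kept direction and call in 193 of 193 planned recomputations of that 1 comparison each, and their other comparisons are not in this number. Each comparison was picked for its small adjusted p in these data, so kept calls were likely beforehand. The later fit without Sensitized replicates 3 and 4 is not counted, and Foxo1 +366.2 kb was not called in it. Of the deposited lists, list peaks with a q-value under 0.05 overlapped 1 to 6 members. With 3 or 4 libraries a group, and S+P C4 replicate 1 at 2430890 counts, changes below the fold threshold are measured less firmly at low-count peaks.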
